A study of Mus musculus with 8 samples.

Results

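The cytosolic ribosomal protein genes were the rows of the deposited table whose symbol starts with Rpl, Rps or Rplp and a number, together with Rpsa; kinase genes named Rps6k and symbols with a pseudogene suffix were left out. The rule found 90 of 22173 genes, 55 with large subunit names and 35 with small subunit names. Of the 90, 77 encode the canonical proteins of the ribosome (46 large, 31 small), and 13 are paralogues, retrocopies or genes with a related name. The filter on low counts kept 86 of them. The 4 that it removed were Rpl10l, with 0 counts in all 8 libraries, Rpl32l with 0 to 4 counts, Rpl39l with 2 to 9 and Rps23rg1 with 0 to 1.

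The study asked how liraglutide alters the transcriptome of skeletal muscle in diet-induced obesity, using C57BL/6 mice, a widely used inbred strain that was fattened by diet. Mice aged 24 weeks were split into groups of 8. The liraglutide group received liraglutide, an agonist of the GLP-1 receptor, at 0.2 mg/kg/day by subcutaneous injection over 9 weeks; saline was given to the other group, called model. Polyadenylated RNA was sequenced from the muscle of 4 mice per group, each library from its own animal by the animal code in its label. There was no lean or untreated group, so both groups share the diet-induced obesity at the start and the injections.

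The ribosome is built from ribosomal RNA and a set of mostly small and basic proteins that are needed in fixed proportions. Their genes are usually expressed in a coordinated way. Their messenger RNAs begin with a run of pyrimidines, the 5′ TOP motif, through which translation of the whole class is regulated by the mTOR pathway. In skeletal muscle, ribosome content is known to set the capacity for protein synthesis. A few proteins have tissue-restricted paralogues, and Rpl3l, which replaces Rpl3 in skeletal muscle and heart, is the best known.

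Library totals ran from 15033631 to 16622716 counts in the model group and from 17133476 to 18244579 in the liraglutide group. Listed markers of skeletal muscle were all detected and summed to 165600 to 167800 CPM (counts scaled to the library total) in the model libraries and 168400 to 182800 with liraglutide, and 5 of the 10 were called higher. Of 8 adipocyte markers, 7 were called lower with liraglutide, with summed levels of 834 to 1231 CPM against 1415 to 2232. Of 7 tested epididymis markers, all were called lower, with sums of 0.226 to 1.48 CPM against 24.5 to 51.9 in the model libraries. Of 6 tendon markers, 2 were called higher, with sums of 241 to 557 CPM against 168 to 276. Over all genes tested, 5.45% were called higher and 4.83% lower. Among all genes of at least 20 FPKM (fragments per unit of transcript length and of sequencing depth), 516 of 2168 were called higher and 78 lower. Neutrophil markers summed to 41.1 to 140.0 CPM against 2.86 to 80.9, and macrophage markers to 123 to 216 against 171 to 216. Fibroblast markers summed to 781 to 1282 CPM against 1297 to 1339, and endothelial markers to 288 to 318 against 329 to 383. The part of these differences in the ribosomal protein values was not tested. In bulk tissue, a change in the mix of cells and a change in RNA per cell cannot be told apart.

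Ribosomal protein transcripts were higher in muscle of liraglutide-treated mice. Of the 86 tested, 63 were called higher at an adjusted p under 0.05 and 0 lower, with edgeR's quasi-likelihood test and Benjamini-Hochberg adjustment over 12963 genes. Over all genes tested, 5.45% were called higher and 4.83% lower. The count of 0 lower also held at an unadjusted p under 0.05 and in DESeq2, which called 66 higher. The median log2 fold change of the members was 0.27, or 1.21-fold, against −0.01 over all genes. Fold changes were positive for 85 of 86 members, and Rps27rt, a retrogene of Rps27, had the only negative value; 5 were negative with library totals alone as the scaling. With that scaling, 46 members were called higher and 0 lower, while the split over all genes moved from 707 higher and 626 lower to 338 higher and 1241 lower.

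Other short, abundant transcripts were shifted in the same direction. Ribosomal protein transcripts are short and abundant, and among 282 other genes with a deposited length under 1000 bases and a mean of at least 20 FPKM (fragments per unit of transcript length and of sequencing depth), 41.8% were called higher and the median log2 fold change was 0.23. The corresponding median of the 56 members under 1000 bases was 0.29, and 44 of them were called higher. With an offset for gene length and GC content smoothed over other genes of at least 20 FPKM, 8 of 86 members were called higher and the members' median log2 fold change was 0.06. Over all genes, 0.571% were called higher in that fit, and among all genes of at least 20 FPKM, 50 of 2168. Of the 282 other short, abundant genes 6 were called higher in it, beside 2 of the 56 members under 1000 bases. The remaining 6 calls were among the 30 members of 1000 bases or more. A general shift of short transcripts and a change particular to the ribosome cannot be told apart by a fit of this kind where the members themselves are short. Values below are from the fit without such offsets unless an offset is named, and the length class and this offset were chosen after the data had been seen.

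The shift was visible in each library. Ribosomal protein genes took 1.47%, 1.52%, 1.51% and 1.42% of all counts in liraglutide libraries 1 to 4. They took 1.32%, 1.28%, 1.28% and 1.31% in model libraries 1 to 4. The groups did not overlap, and liraglutide 4 lay nearest the model libraries. Against each gene's mean over the 8 libraries, the median deviation of the 86 members was 0.12, 0.16, 0.20 and 0.07 on the log2 CPM scale in the liraglutide libraries. The same median was −0.11, −0.14, −0.14 and −0.13 in the model libraries. Model 3 had no member above its mean, while liraglutide 4 had 68 and liraglutide 3 had 85. Over all genes tested, the correlation of a library's deviations with log2 gene length was −0.08, −0.16, −0.10 and 0.02 in the liraglutide libraries and 0.11, 0.14, 0.02 and 0.08 in the model libraries. Deviations correlated with GC content at 0.12 to 0.15 in the liraglutide libraries and at −0.20 to −0.10 in the model libraries. The part of these length and GC trends in single members' values was not tested beyond the offsets.

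**Figure D1:**
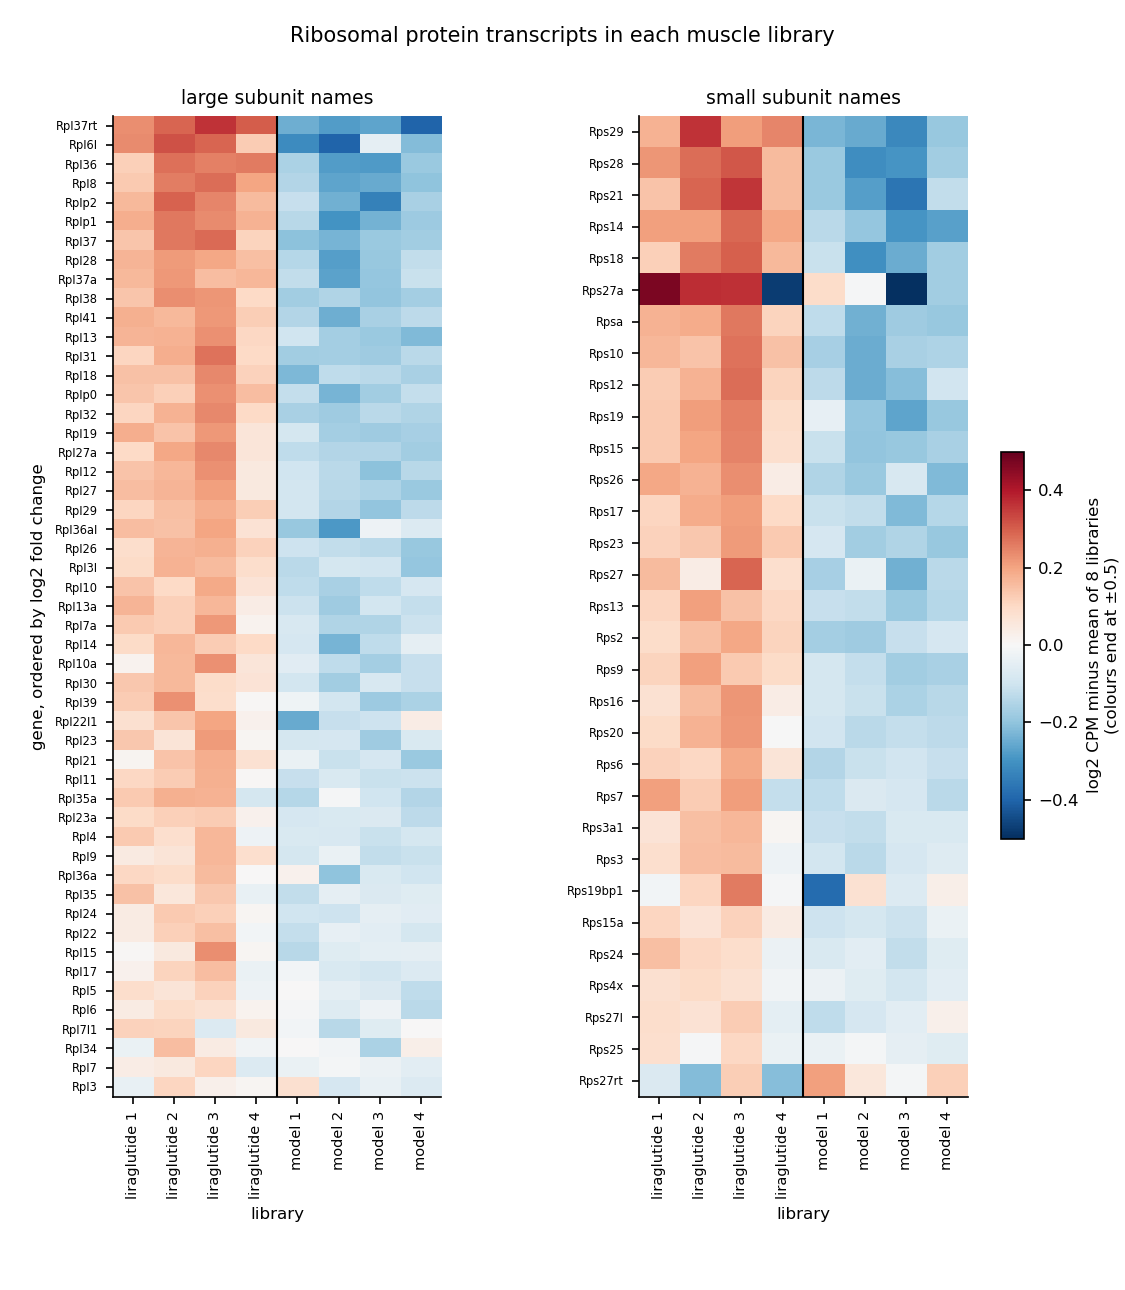
Log2 CPM, scaled with TMM factors, of tested ribosomal protein genes in each of the 8 libraries (columns), minus the gene's mean over the libraries; genes (rows) are ordered by fold change and colours end at 0.5 in both directions. Liraglutide libraries are mostly red and model libraries mostly blue; liraglutide 4 is palest among the treated, and Rps27a varies within both groups.

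After TMM scaling, 71 of the 86 members had every liraglutide library above every model library, and 0 had the reverse. Over all genes, 9.58% had the same complete separation upward. Among all genes of at least 20 FPKM, 721 of 2168 had it. Among the other genes under 1000 bases at that level, 148 of 282 had it. On the deposited FPKM scale, without TMM factors, 57 of 86 were separated in this way, against 4.91% of all genes. The mean TMM factor was 0.974 in the liraglutide and 1.027 in the model group, so a fitted log2 change exceeds the log2 ratio of FPKM by about 0.08. FPKM is therefore given below for levels and the fitted change for the comparison.

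Both subunits moved by similar amounts. Of 52 tested genes with large subunit names, 38 were called higher, and the median log2 fold change was 0.25. Of 34 with small subunit names, 25 were called higher, and the median was 0.28. Among canonical proteins, 34 of 46 large subunit genes were called higher, with a median of 0.25, and 25 of 31 small subunit genes, with a median of 0.30. With TMM scaling all 77 canonical genes had positive fold changes, from 0.05 for Rpl3 to 0.50 for Rps29. The difference between the subunits' medians was not tested, since genes are not replicates, and the canonical small subunit genes were shorter (median 703 bases against 900.5).

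**Figure D2:**
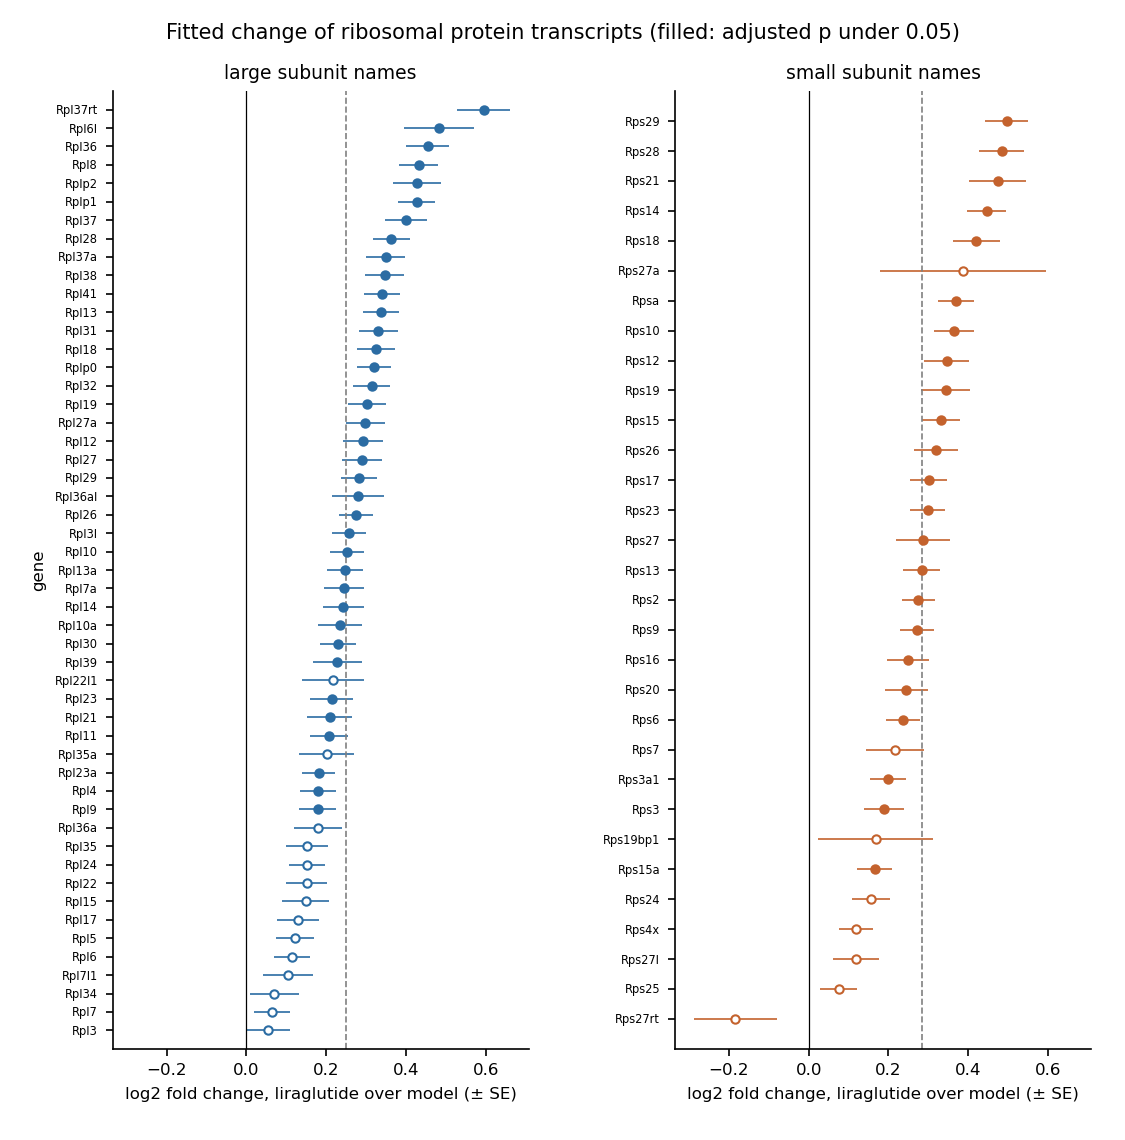
Fitted log2 fold change (liraglutide over model, horizontal axis) with its standard error for tested members (4 libraries per group), in large and small subunit panels; filled points passed an adjusted p of 0.05 and the dashed line marks the median of all tested members of the panel's subunit. Medians are 0.25 and 0.28, and Rps27rt is the only point left of 0 in this fit.

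Mean levels of the 77 canonical transcripts over the 8 libraries spanned 20.5 FPKM for Rps15a to 559 FPKM for Rplp1, with a median of 172, and 62 of them were at 100 FPKM or more. The deposited length of Rps15a is 5136 bases, far above that of the other members, and FPKM divides by it. Rps15a was 21.5, 21.2, 21.1 and 20.6 FPKM with liraglutide and 19.6, 19.7, 19.4 and 20.6 in model libraries. It was the lowest canonical transcript in both groups, and its rise was small (log2 fold change 0.17 ± 0.044 SE, edgeR adjusted p = 0.0417).

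In the large subunit, the proteins of the stalk, which recruits the translation factors that hydrolyse GTP, were all called higher (4 of 4, median log2 fold change 0.37). The role groups were assigned after values had been seen, and their counts stand against 73.3% of all tested members and 5.45% of all genes called higher. With the length and GC offset from abundant genes, 1 of the 4 was called. Rplp1, an acidic stalk protein and the most abundant member, was 614, 657, 623 and 612 FPKM with liraglutide and 518, 462, 481 and 504 in model libraries. Every treated library lay above every model library, and the fitted log2 fold change was 0.43 ± 0.047 (adjusted p = 0.00167). Its partner Rplp2 was 300.3, 333, 310.5 and 300.1 FPKM with liraglutide and 261, 238, 222 and 254 without. The groups were again separate, and the change was 0.43 ± 0.060 (adjusted p = 0.00327). Rplp0, the scaffold to which both bind, was 527, 526, 548 and 534 FPKM against 465, 427, 444 and 466. It rose by 1.25-fold (log2 0.32 ± 0.043, adjusted p = 0.00278) and kept its call under each offset for length and GC content that was run. Rpl12, at the base of the stalk, rose by 1.22-fold.

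Of 3 proteins that reach toward the peptidyl transferase centre, where peptide bonds form, Rpl8 and Rpl10 rose and Rpl3 did not pass the test. With the length and GC offset from abundant genes, 0 of the 3 were called higher. Rpl8 was 364, 402, 394 and 382 FPKM with liraglutide and 317, 290.1, 292 and 306 in model libraries. All treated libraries were above all model libraries, at a log2 fold change of 0.43 ± 0.048 (adjusted p = 0.00167). Rpl10, which joins the large subunit late in its assembly, was 325, 319.6, 328 and 309.8 FPKM against 284, 276, 282 and 293. These groups did not overlap either (log2 fold change 0.25 ± 0.042, adjusted p = 0.00748).

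Rpl5 and Rpl11 form a particle with a small ribosomal RNA and, outside the ribosome, bind the p53 regulator Mdm2. Rpl11 was 82.2, 84.6, 84.6 and 77.1 FPKM with liraglutide and 74.7, 76.2, 74.2 and 75.05 without, and was called higher (log2 fold change 0.21 ± 0.048, adjusted p = 0.0250). Rpl5 was 124, 123, 123 and 115 FPKM against 123, 118, 116 and 113, and did not pass (0.12 ± 0.047, adjusted p = 0.131). Ranges overlapped for Rpl5 and not for Rpl11. With the length and GC offset from abundant genes, 0 of these 2 were called higher. Of 8 proteins lining or surrounding the exit tunnel, through which the growing peptide leaves, 6 were called higher, with a median of 0.20, and 1 with that offset. Rpl31, at the tunnel's mouth, was 169.9, 181, 186 and 169.5 FPKM against 148, 147, 146 and 152, a log2 fold change of 0.33 ± 0.049 (adjusted p = 0.00427). Rpl4, whose long loop narrows the tunnel, was 391, 382, 391 and 352 FPKM against 357, 354, 346 and 355. Liraglutide 4 lay within the model range of Rpl4 on this scale, and the fitted change was 0.18 ± 0.046 (adjusted p = 0.0377).

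The other large subunit genes with the smallest p-values included Rpl36, Rpl28 and Rpl41. Rpl36 was 133, 150.2, 143 and 147 FPKM with liraglutide and 116, 106, 105 and 114 in model libraries, and had the largest fitted change among canonical large subunit genes (0.45 ± 0.055, adjusted p = 0.00197). Its groups were separate. Rpl28 was 392, 408, 389 and 387 FPKM against 333, 301, 319.6 and 338 (0.36 ± 0.046, adjusted p = 0.00253). Rpl41, which encodes the smallest ribosomal protein, was 480.4, 481, 483 and 463 FPKM against 405, 376, 398 and 410.3 (0.34 ± 0.044, adjusted p = 0.00272). Rpl28 and Rpl41 likewise had every treated library above every model library. Rpl36, Rpl28 and Rpl41 all lost their calls under the length and GC offset from abundant genes. Their log2 fold changes there were 0.18, 0.06 and 0.03.

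At the other end of the large subunit, Rpl3, Rpl7 and Rpl34 had the smallest fitted changes. Rpl7, at a nearly constant 304 to 309.8 FPKM in the model libraries, was 305, 312, 314 and 285 with liraglutide (log2 fold change 0.06 ± 0.045, adjusted p = 0.409). Rpl34 was 48.2, 55.5, 49.5 and 48.8 FPKM against 52.1, 51.2, 46.3 and 53.2 (0.07 ± 0.062, adjusted p = 0.516). In both genes the groups overlapped.

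In the small subunit, proteins of the head, which swivels as messenger and transfer RNA move, were called higher in 12 of 13 cases, with a median of 0.34. With the length and GC offset from abundant genes, 1 of the 13 was called. Rps29 was 387, 446, 387 and 407 FPKM with liraglutide and 309, 301, 287 and 318 in model libraries. It had the largest change of any canonical member (log2 0.50 ± 0.054, 1.41-fold, adjusted p = 0.00166), with the groups separate. Rps28, near the exit of the messenger RNA channel, was 178, 188, 185 and 171 FPKM against 142, 129, 131 and 143. The groups did not overlap (0.48 ± 0.056, adjusted p = 0.0018). Rps25, needed for initiation at several viral internal entry sites, was the head protein that did not pass, at 262, 249, 259 and 242 FPKM against 254, 257, 251 and 249.7. Its groups overlapped (0.08 ± 0.046, adjusted p = 0.331).

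All 5 platform proteins, which lie where messenger RNA leaves the subunit, were called higher, with a median of 0.37, and 1 of them with the same offset. Rps14 was 420.3, 425, 435 and 418 FPKM with liraglutide and 349.6, 334, 311 and 319 without, a log2 fold change of 0.45 ± 0.049 (adjusted p = 0.00166). Rpsa, also known as the laminin receptor precursor, was 227, 231, 235 and 217 FPKM against 194, 178, 186 and 186 (0.37 ± 0.045, adjusted p = 0.00212). Both genes had separate groups. Rpsa is longer than most members, at 1861 bases, and its log2 fold change was 0.29 under the length and GC offset from abundant genes, where it was still called higher. Rps21 rose by 1.39-fold, Rps26 by 1.25-fold and Rps3a1 by 1.15-fold.

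Of 11 proteins of the body, 7 were called higher, with a median of 0.24, and 1 with the offset. Rps6, the protein phosphorylated by the S6 kinases downstream of mTOR, was 135, 135, 139 and 131 FPKM with liraglutide and 118, 121, 122 and 121 without. It rose by 1.18-fold with no overlap between groups (log2 0.24 ± 0.043, adjusted p = 0.00973). Rps4x did not pass. It was 182, 186, 178 and 171 FPKM against 178, 173, 169.5 and 175 (0.12 ± 0.042, adjusted p = 0.103), and the FPKM ranges overlapped.

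Rps27a stood apart by its spread, and it was singled out after its values had been seen. The gene encodes ubiquitin fused to a protein of the small subunit, and the fusion is cut after translation. It was 133, 126, 121 and 69.5 FPKM with liraglutide and 108, 101, 64.5 and 90.2 in model libraries. Liraglutide 4 and model 3 were the low values, and the groups overlapped. The fitted log2 fold change was 0.39 with a standard error of 0.208, several times that of most members, and the adjusted p was 0.271. How reads that also match processed copies of Rps27a were counted is not given in the sources used here.

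The paralogue Rpl3l was more abundant per length than Rpl3 in this muscle. Rpl3l was 232, 248, 237 and 232 FPKM with liraglutide and 209, 215, 213 and 201 in model libraries. The groups were separate, and Rpl3l was called higher (log2 fold change 0.26 ± 0.042, adjusted p = 0.00645). Its call held with the length offset over all genes (0.25) and was lost under the other 3 offsets, with log2 fold changes of 0.18, 0.18 and 0.13. Rpl3 was 46.2, 51.7, 47.1 and 47.9 FPKM with liraglutide and 52.8, 46.9, 48.4 and 47.7 without. Its groups overlapped, and it was the canonical member with the smallest fitted change (0.05 ± 0.055, adjusted p = 0.583). The ratio of Rpl3l to Rpl3 averaged 4.93 with liraglutide and 4.29 without. On the log2 scale the ratio was 2.33, 2.26, 2.33 and 2.28 in treated and 1.99, 2.20, 2.14 and 2.08 in model libraries, without overlap. The difference was 0.20, with an exact two-sided permutation p of 0.0286, the smallest that 4 against 4 libraries can give. Adjusted over the 8 paralogue pairs compared, it was 0.0571 (exact permutation test), so it did not pass 0.05. Rpl3l has a deposited length of 1833 bases and Rpl3 of 1533.

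**Figure D3:**
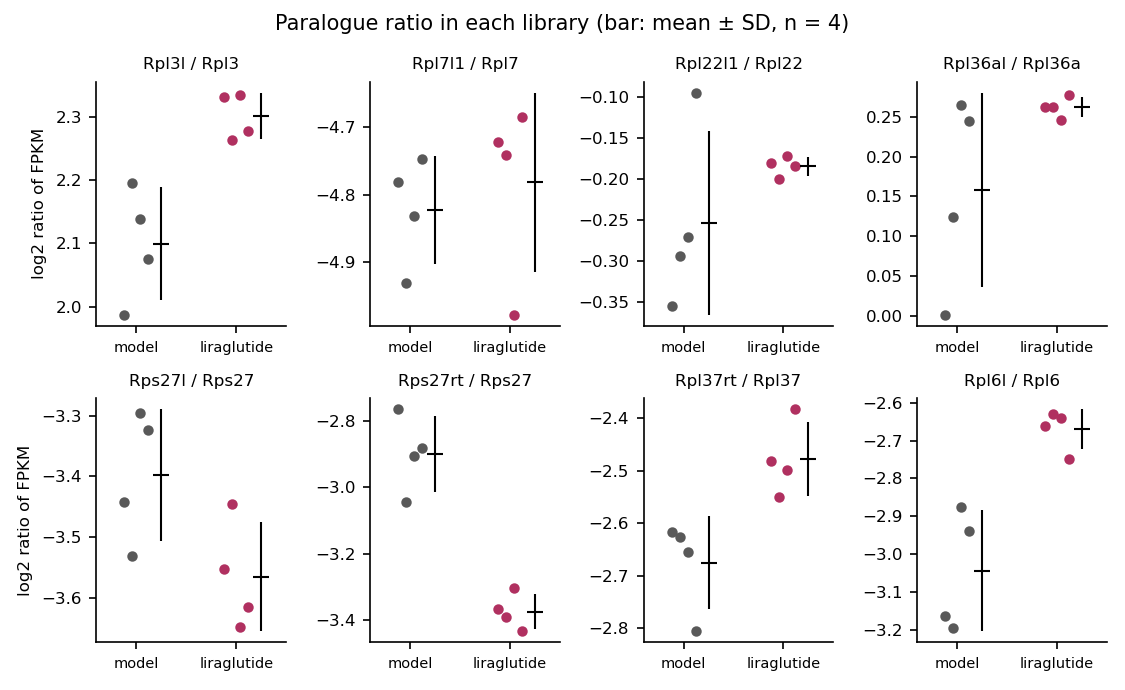
Log2 ratio of FPKM of each paralogue to its parent gene in every library, with mean and SD (n = 4 per group); vertical axes differ between panels. Groups are separate for Rpl3l, Rps27rt, Rpl37rt and Rpl6l against their parents and overlap for the other pairs, whose exact permutation p-values were 0.0571 or above.

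For Rpl36al, Rpl22l1, Rpl7l1 and Rps27l the ratio to the parent did not separate the groups. Rpl36al, which is nearly identical in protein to Rpl36a, was 129, 129, 129 and 122 FPKM with liraglutide and 107, 99.3, 119 and 117 without. It was called higher (0.28 ± 0.065, adjusted p = 0.0255) while Rpl36a was not (0.18 ± 0.060, adjusted p = 0.0893), and the log2 ratio differed by 0.10 (exact permutation p = 0.171). Rpl22l1, at 40.0, 42.1, 42.4 and 38.4 FPKM against 33.4, 36.6, 36.8 and 41.0, did not pass, nor did Rpl22. The ratio of the 2 genes differed by 0.07 between groups (exact permutation p = 0.229). Rpl7l1, a nucleolar relative of Rpl7, stayed near 11 FPKM in both groups, from 9.96 to 11.7, 28.3 times below Rpl7 in the model group. Rps27l, a p53-inducible paralogue of Rps27, was 21.0, 21.0, 21.1 and 19.1 FPKM against 19.1, 19.6, 19.9 and 21.2 and did not pass (0.12 ± 0.057, adjusted p = 0.216). Its log2 ratio to Rps27 was 0.17 lower with liraglutide by group means, with overlapping groups (exact permutation p = 0.0571).

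Rpl37rt and Rps27rt are annotated as retrocopies, which arise from reverse-transcribed messenger RNA, and gave the largest and the only negative fold change. Their pairing and that of the L6-like gene Rpl6l with the parent genes was examined with earlier results known, and their reads are hard to tell from those of the parents, so these values are uncertain. Rpl37rt was 24.9, 26.2, 26.6 and 26.2 FPKM with liraglutide and 18.9, 18.3, 18.4 and 16.9 without. It had the largest change of all members (0.59 ± 0.066, 1.51-fold, adjusted p = 0.00167), and its parent Rpl37 was called higher at 0.40 ± 0.052 (adjusted p = 0.00278). Rpl6l was 22.3, 23.8, 22.6 and 20.7 FPKM against 16.03, 14.99, 19.2 and 17.2 (0.48 ± 0.087, adjusted p = 0.00972), while its parent Rpl6 did not pass (0.11 ± 0.045, adjusted p = 0.137). Rps27rt was 23.9, 21.8, 26.8 and 21.7 FPKM against 30.5, 27.4, 26.1 and 28.8. It lay lower in all treated libraries but liraglutide 3, and it did not pass (−0.18 ± 0.104, adjusted p = 0.294). Rps27, at 246, 229, 264 and 234 FPKM against 208, 226, 196 and 212, was called higher (0.29 ± 0.068, adjusted p = 0.0280). The log2 ratio to the parent differed by −0.47 for Rps27rt, 0.20 for Rpl37rt and 0.37 for Rpl6l, each with separate groups, an exact permutation p of 0.0286 and an adjusted p of 0.0571.

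The windows around the annotated starts of Rps27 and Rps27rt are shown because the fitted changes of the pair had opposite signs, that of Rps27rt without passing the test. Both are from RefSeq on build GRCm38.p6, with 60 bases before and 20 after the start, and capitals mark the longest stretch they share within these windows, of 19 bases. Rps27 lies at chr3:90213629-90213708, minus strand, and Rps27rt at chr9:114982720-114982799, minus strand.
Rps27: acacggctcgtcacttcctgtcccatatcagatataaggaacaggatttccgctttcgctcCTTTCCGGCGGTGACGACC
Rps27rt: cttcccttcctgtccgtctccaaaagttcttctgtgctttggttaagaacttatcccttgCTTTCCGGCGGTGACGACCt
The shared stretch begins at or next to the annotated start and in Rps27 runs to the end of the window, so its full length is not shown.

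The name rule also holds Rps19bp1, which encodes a nucleolar protein that binds Rps19 and is no ribosomal subunit. It was 5.51, 6.08, 6.54 and 5.56 FPKM with liraglutide and 4.49, 6.17, 5.55 and 6.02 without, the lowest level of any tested member. Its groups overlapped, and it did not pass (0.17 ± 0.144, adjusted p = 0.502).

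Promoter windows of 250 bases before to 50 after the start were found in RefSeq for 69 members, in 81 windows. A search of both strands looked for a core of ETS factor sites (CCGGAAG), a short pyrimidine run (CTTTCC) and a YY1 site (GCCATNTT). The motifs were chosen after the windows had been seen. A match anywhere in the window was counted, so the share with CTTTCC is not a share of genes with a 5′ TOP motif. CCGGAAG was in 33.3% of members' windows and 8.86% of all 32851 windows, CTTTCC in 49.4% and 26.6%, and GCCATNTT in 21.0% and 6.05%. The windows of members called higher and of the others were also counted, with no test of the difference. Of these, 19 of 53 windows of called and 8 of 28 of other members held CCGGAAG, 24 of 53 and 16 of 28 held CTTTCC, and 8 of 53 and 9 of 28 held GCCATNTT. The examples below were picked after the search: 2 genes that rose and hold a motif (Rpl28, Rpl41), Rpsa, which kept its call under every offset, Rpl34, which did not pass, and the muscle paralogue Rpl3l. Each runs from 60 bases before to 20 after the annotated start on GRCm38.p6, and capitals mark the motifs. Positions are chr7:4792905-4792984, plus strand; chr10:128549149-128549228, minus strand; chr9:120127706-120127785, plus strand; chr3:130730379-130730458, minus strand; and chr17:24727766-24727845, plus strand, in that order.
Rpl28: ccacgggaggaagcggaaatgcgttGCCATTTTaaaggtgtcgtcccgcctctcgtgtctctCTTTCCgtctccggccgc
Rpl41: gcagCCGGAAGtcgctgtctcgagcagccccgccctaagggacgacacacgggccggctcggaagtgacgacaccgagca
Rpsa: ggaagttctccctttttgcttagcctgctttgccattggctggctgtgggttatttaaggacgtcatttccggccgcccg
Rpl34: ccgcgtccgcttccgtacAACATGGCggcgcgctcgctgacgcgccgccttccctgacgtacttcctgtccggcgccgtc
Rpl3l: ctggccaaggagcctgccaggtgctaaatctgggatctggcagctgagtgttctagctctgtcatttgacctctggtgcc
Rpl28 holds a YY1 site and a pyrimidine run, Rpl41 an ETS core and Rpl34 a YY1 site on the opposite strand, while the letters searched for are in neither the Rpsa nor the Rpl3l stretch.

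Among members, fold change was related to sequence properties and level. Over 86 members, the log2 fold change correlated with log2 gene length at r = −0.31 (rho −0.373), with GC content at r = 0.374 (rho 0.430) and with log2 mean FPKM at r = 0.286 (rho 0.302). These describe genes measured in the same 8 libraries and carry no test. Members of 1000 bases or more had a median log2 fold change of 0.21, and 19 of 30 were called higher, while other genes of that length with at least 20 FPKM had a median of 0.08, with 336 of 1803 called higher. Across length classes of other genes with at least 20 FPKM, the median fell stepwise from 0.27 at 200 to 600 bases to 0.02 at 4000 to 8000 bases.

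**Figure D4:**
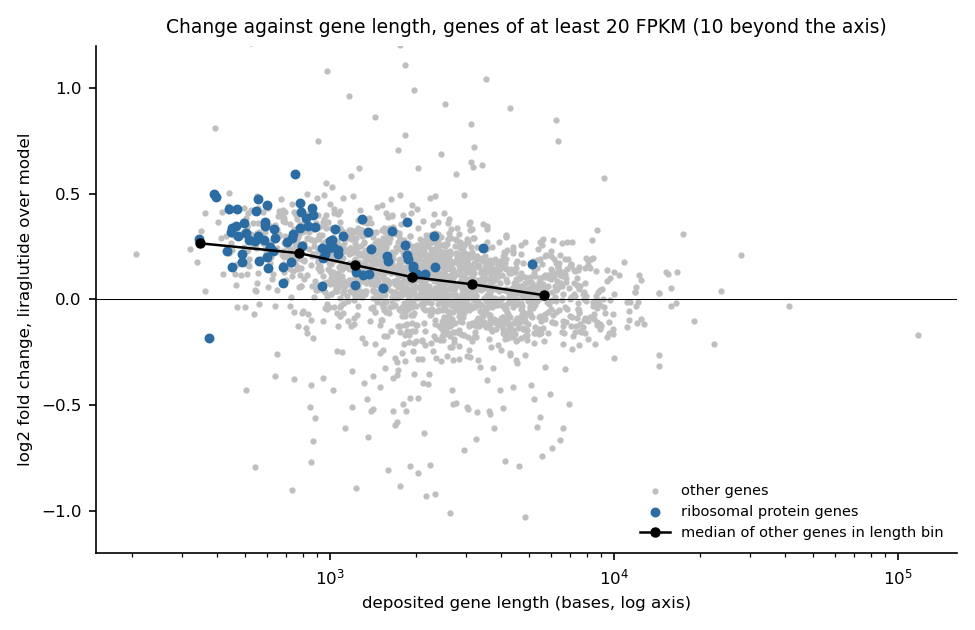
Log2 fold change (liraglutide over model) against deposited gene length (log axis) for genes of at least 20 FPKM; grey points are other genes, blue points ribosomal protein genes, and the black line joins medians of other genes by length class, with 10 genes beyond the vertical range. The black line falls from 0.27 to 0.02, and most ribosomal protein genes lie on or above it.

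With an offset for length over all genes, 48 members were called higher, and with length and GC content, 31, where 2.82% of all genes were called higher. Of all 12963 genes, 740 and 366 were called higher in these fits. Of the 282 other genes under 1000 bases and at least 20 FPKM, 72 and 39 were. With offsets smoothed over abundant genes other than the members, 12 members were called higher for length, where Rps27rt was also called lower. For length with GC content, 8 members were called higher. Of all genes, 164 and 74 were called higher in these fits, and of the same 282 other genes, 10 and 6. The 8 members of the last fit included Rpl31, Rpl37, Rpl37rt, Rplp0, Rps15a, Rps20 and Rpsa. In that last fit, 14 of the 86 fold changes were negative. Leaving out each library in turn, 47 members were called higher every time, and 5 of these, among them Rpl37, Rpl37rt, Rplp0 and Rpsa, were also called under all 4 offsets. Over all genes, 344 to 662 were called higher in the single omissions. The number of all genes called every time was not counted.

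**Figure D5:**
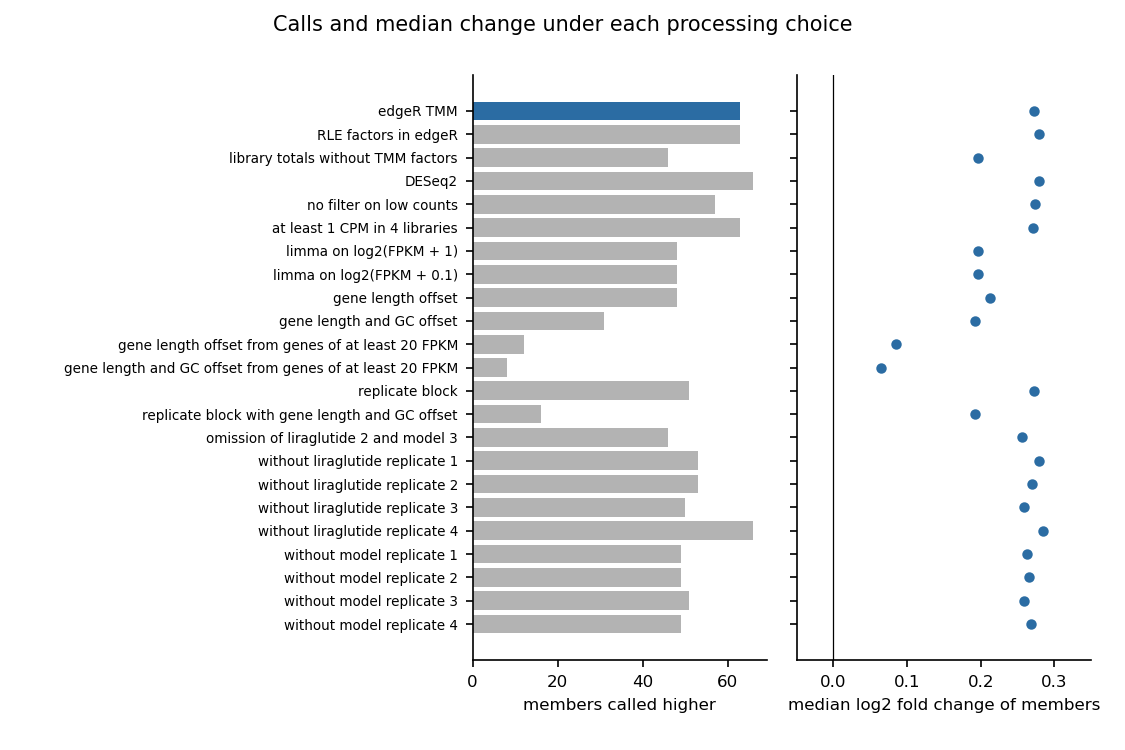
Number of the 86 members called higher (left, bars from 0) and their median log2 fold change (right, points) under each processing choice. The bar for the reported fit stands at 63; the shortest, at 12 and 8, are the offsets smoothed over genes of at least 20 FPKM, with medians of 0.09 and 0.06.

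Lists of genes that work with the ribosome were counted in the same fit. Ribosomal proteins outside the name rule included Fau, a ubiquitin-like fusion, and Rack1, a scaffold on the small subunit, which were called higher at log2 fold changes of 0.41 and 0.37. Under the length and GC offset from abundant genes, Fau lost its call (0.10) and Rack1 kept it (0.23). Of 18 elongation factor and other 5′ TOP transcripts, 5 were called higher and 1 lower, with a median of 0.14. Over all genes 5.45% were called higher and 4.83% lower, and among all genes of at least 20 FPKM 23.8% were called higher. With the length and GC offset from abundant genes, 2 of the 18 were called higher. Eef2, the factor that moves the ribosome along the messenger RNA, was 629, 628, 685 and 636 FPKM with liraglutide and 558.5, 519, 545 and 543 without. Its groups were separate (0.33 ± 0.046, adjusted p = 0.00327), as were those of Tpt1 (0.30 ± 0.042, adjusted p = 0.00326), a TOP transcript for a small chaperone-like protein, and of Eef1b2 (0.21 ± 0.043, adjusted p = 0.0159), a subunit of the exchange factor for elongation.

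Ribosome assembly genes were read against the same shares. Of 36 genes for rRNA modification and the small subunit processome, 5 were called higher and 0 lower in edgeR, with 8 higher and 0 lower at an unadjusted p under 0.05 and 4 higher and 0 lower in DESeq2. Their median was 0.03, and all 5 calls were lost with the offset for length and GC content over all genes and over abundant genes. Fbl, the methyltransferase of the box C/D particles, was called higher (0.33 ± 0.067, adjusted p = 0.0159), as were Imp3 of the processome (0.48 ± 0.104, adjusted p = 0.0197) and Nhp2 of the box H/ACA particles (0.30 ± 0.077, adjusted p = 0.0363). Of 36 large subunit assembly genes, 0 were called by edgeR or DESeq2 in either direction, with 7 higher and 0 lower at an unadjusted p under 0.05; Noc2l had the smallest p (0.21 ± 0.062, adjusted p = 0.0652). Of 12 RNA polymerase I and rRNA transcription genes, 0 were called by either tool, with 1 higher and 0 lower at an unadjusted p under 0.05, and the smallest p was that of the shared subunit Polr1d (0.16 ± 0.054, adjusted p = 0.0873). Of 14 genes that control ribosomal protein transcripts or their translation, 1 was called lower in edgeR and 0 higher. Over all genes, 4.83% were called lower and 5.45% higher. The gene called lower was Larp4, which binds poly(A) tails (−0.18 ± 0.049, adjusted p = 0.0436). Its call was lost with the offset for length and GC content over all genes and over abundant genes (−0.04 in the latter). At an unadjusted p under 0.05, 0 of the 14 were higher and 3 lower. DESeq2 called 0 in either direction.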

How the data were processed

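Stranded libraries were prepared from polyadenylated muscle RNA, per the labels' protocols. For 22173 genes the deposited table holds raw counts and FPKM (fragments per unit of transcript length and of sequencing depth), per the file headers. Tools named in the submitters' processing notes are HISAT2, Trimmomatic, HTSeq, Cufflinks and DESeq, beside the human build GRCh38, although the genes are mouse genes, so the build used is unsettled and no coordinates were taken from the table. How reads with several matches were counted is not given in the sources used here. For 17484 of 17484 genes with a count, the authors' FPKM equalled the count scaled by library total and a whole-number gene length within 0.01 base; that length was used here. A column with a misspelt group name was assigned by its animal code.

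Counts were tested with edgeR 4.0.16 in R 4.3.3 (quasi-likelihood test, TMM scaling, filterByExpr with a minimum count of 10, Benjamini-Hochberg over 12963 genes; group as the only term). A call is an adjusted p under 0.05. Log2 fold changes are liraglutide over model, ± SE. The common biological coefficient of variation was 13.7%. Paralogue ratios of FPKM were compared with exact permutation tests over 70 assignments. Alternatives were DESeq2 1.42.0, limma 3.58.1 on log2(FPKM + 1) and log2(FPKM + 0.1), other scalings and filters, loess offsets (span 0.5, R's default degree, chosen after a straight-line smooth had also been tried and gave nearly the same calls) for gene length and GC content (GC known for 12903 genes), a replicate block, and leaving out libraries. The script was tested on simulated counts.

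The members and gene lists were chosen with earlier results of these data known. Genes were named by rule: the 6 canonical members of each subunit with the smallest p, the 3 with the smallest fold change, paralogues with their parents, members that are no subunit, the lowest and highest levels, and up to 3 called genes of each other list. Rps27a and the members given for the role groups (Rplp0, Rplp2, Rpl12, Rpl5, Rpl11, Rpl31, Rpl4, Rps6, Rps21, Rps26 and Rps3a1) were named after values had been seen. Some genes that these rules name are not reported here or drawn by name, although all counts and medians include them.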

Additional observations from a re-analysis of the deposited data

Results flagged for a closer look

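In 94 groups of 4 libraries (named members' FPKM and paralogue ratios), 3 held a library far from the other 3 of its group; chance gives about 1 in 20 such groups. In the liraglutide group, Rpl41 was 463 FPKM in liraglutide 4, below the 480.4 to 483 of the others. Rpl36al was 121.7 FPKM in liraglutide 4, below a value near 129 in each of the others. Rps27l was 19.11 FPKM in liraglutide 4 and 21.0 to 21.1 in the others. All 3 low values came from liraglutide 4, the treated library with the smallest median deviation of the members (0.07 on the log2 scale).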

How the results depend on the processing

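The count of 63 members called higher stayed within 1.5 times under the other scalings, filters, DESeq2, limma and the length offset over all genes, and under omission of each library (49 to 66). It was 31 with the length and GC offset, 12 and 8 with the length and the length and GC offsets from genes of at least 20 FPKM, and 16 with the replicate block plus length and GC offset. In the same order, large subunit counts were 17, 9, 5 and 10 (single omissions 28 to 39) and small subunit counts 14, 3, 3 and 6 (19 to 27). One member, Rps27rt, was called lower (count 1) with the length offset from abundant genes. The median log2 fold change was 0.20 with library totals and with limma at either pseudocount, 0.21 with the length offset, 0.19 with the length and GC offset with or without the replicate block, 0.085 and 0.064 with the offsets from abundant genes, and 0.26 to 0.28 in single omissions. Of 86 fold changes, 18 were negative with the length offset from abundant genes and 14 with its length and GC form. Among members named by rule and called higher, these were Rpl39 (−0.042) and Rps27 (−0.014) with the former, and Rps27 (−0.026) with the latter. The cause of these moves was not tested.

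The Rpl3l to Rpl3 log2 difference was 0.17 to 0.23 in single omissions; exact permutation p was 0.0571 without any 1 liraglutide library. It was 0.23 without liraglutide 2 and model 3 and 0.20 under the replicate block, designs whose smallest p (0.1 and 0.125, exact permutation) cannot pass 0.05. After each group's gene means were removed, same-numbered libraries correlated at 0.141, −0.03, 0.142 and 0.06. In the other group, 5 of 8 libraries correlated best with their own number. These values do not settle whether the numbers pair the animals. The replicate block alone gave 51 members. Rpl10l, Rpl32l, Rpl39l and Rps23rg1 had too few counts to be tested.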
